A study of Mus musculus with 6 samples.

Results

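The genes described here are 10 genes of the CD8 and cytotoxic lymphocyte programme: Cd8a, Cd8b1, Eomes, Gzma, Gzmb, Gzmk, Prf1, Nkg7, Klrd1 and Klrb1c. They were followed through 6 one-colour expression arrays of mouse regulatory T cells (Treg), the CD4+ T cells that restrain immune responses. Members were chosen by name, as the probe sets that the platform annotation gives to 1 of these genes alone. By this rule 9 of the 10 genes had 12 probe sets, of 12393 genes with a probe set of their own. The only probe set for Klrb1c is also given to Klrb1b, so Klrb1c has no value here. All 9 genes were among the 8190 genes tested, although 1 of the 12 probe sets lay under the filter on dim signals.

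The arrays compare 3 wild-type samples (WT) with 3 samples from mice that lack Mbd2 (MBD2–/–, called the knockout), all on the Balb/c background. Mbd2 is a reader of DNA methylation, and the title of the study names demethylation of Foxp3 and Treg function. In both groups CD4+CD25+ cells were separated magnetically, with no added treatment named in the labels. The labels name neither the age of the mice, nor the kind of Mbd2 allele, nor how many mice a sample holds. Nothing says that the 3 samples of a group came from separate animals, so p-values measure the spread between these samples. Values are log2 expression after robust multi-array averaging (RMA), and a difference is the knockout mean minus the wild-type mean.

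Killer lymphocytes carry granules filled with perforin, which opens the target membrane, and with granzymes, the proteases that enter through it. Eomes is a T-box transcription factor of CD8 memory cells and natural killer (NK) cells. Cd8a and Cd8b1 encode the chains of the CD8 coreceptor, which marks T cells restricted by MHC class I and is normally silenced in CD4+ cells. Treg are not devoid of this programme: granzyme B and perforin are known to serve them in killing of target cells. CD8 and NK receptor genes, in contrast, are identity genes of other lineages.

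The 250 bases before the RefSeq start site are shown for the coreceptor gene Cd8a and for the 3 cytotoxic genes whose groups lay apart on all 6 arrays. The capitals mark CG dinucleotides, the sites of DNA methylation that Mbd2 protein can read when they are methylated. Coordinates are those of GRCm38.p6, the C57BL/6J reference and not the Balb/c strain of the arrays, and each sequence is written 5′ to 3′ on the strand of the gene. The windows are chr9:118477939-118478188 (+) for Eomes, chr14:56262335-56262584 (-) for Gzmb, chr13:113180966-113181215 (-) for Gzmk and chr6:71373177-71373426 (+) for Cd8a.
Eomes: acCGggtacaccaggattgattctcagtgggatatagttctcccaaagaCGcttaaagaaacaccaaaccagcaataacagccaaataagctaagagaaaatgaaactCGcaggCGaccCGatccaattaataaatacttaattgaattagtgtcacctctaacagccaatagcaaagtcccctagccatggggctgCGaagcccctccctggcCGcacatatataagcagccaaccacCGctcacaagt
Gzmb: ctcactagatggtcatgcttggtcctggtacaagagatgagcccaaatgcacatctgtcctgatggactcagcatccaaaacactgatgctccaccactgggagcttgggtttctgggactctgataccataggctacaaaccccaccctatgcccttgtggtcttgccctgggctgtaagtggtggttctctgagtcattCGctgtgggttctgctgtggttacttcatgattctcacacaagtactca
Gzmk: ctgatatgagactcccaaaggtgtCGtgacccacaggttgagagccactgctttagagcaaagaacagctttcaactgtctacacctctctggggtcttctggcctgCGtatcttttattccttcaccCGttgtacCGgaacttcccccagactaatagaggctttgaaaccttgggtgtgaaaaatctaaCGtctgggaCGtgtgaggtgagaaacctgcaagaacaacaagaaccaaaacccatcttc
Cd8a: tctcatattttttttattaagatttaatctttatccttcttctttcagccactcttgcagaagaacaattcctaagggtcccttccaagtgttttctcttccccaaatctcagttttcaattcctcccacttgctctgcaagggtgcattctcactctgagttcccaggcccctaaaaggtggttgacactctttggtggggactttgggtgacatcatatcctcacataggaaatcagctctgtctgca

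The Eomes window held 8 CG dinucleotides, a number reached or passed by 43.0% of 32851 mouse promoter windows. Gzmk held 6, equal to the median of all windows. Gzmb held 1, and 92.1% of windows held at least as many. Cd8a held 0. Gzma held 3, Prf1 4, Nkg7 2 and Klrb1c 1. No methylation was measured in these samples, so these are properties of the reference sequence alone.

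Windows were also searched on both strands for GGTGTGA, the core that T-box factors such as Eomes bind, and for TGTGGT, the core that Runx factors bind. The T-box letters were found in 2 of the 8 member windows on hand, 75 bases before the start of Gzmk and 13 bases before that of Nkg7, against 3.3% of all windows. The Runx letters were found in 5 of the 8, those of Gzma, Gzmb, Prf1, Nkg7 and Klrb1c, against 14% of all windows. Gzmb held them at 93 and at 34 bases before its start. Neither motif was found in the windows of Eomes and Cd8a. A match describes the letters and is not a measured binding site. Cd8a and Cd8b1 are direct neighbours on chromosome 6, and Gzma and Gzmk on chromosome 13, with 0 protein-coding genes between them.

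The array labelled WT replicate 3 stood apart from the rest. Across all probe sets its correlation with the other arrays was 0.749 to 0.767, while the others correlated with each other at 0.956 to 0.997. Mbd2 read 8.80, 8.66 and 6.93 in wild type and 5.93, 5.71 and 6.14 in the knockout, so WT replicate 3 lay between the groups, above all 3 knockout arrays. Without WT replicate 3 Mbd2 was lower by 2.80 on the log2 scale in the knockout (difference -2.80, limma adjusted p = 0.0019), and with 6 arrays the difference was -2.21 (adjusted p = 0.548). Foxp3, the transcription factor that defines Treg, read 8.83, 8.74 and 6.93 in wild type and 7.98, 6.62 and 8.17 in the knockout (adjusted p = 0.829 with 6 arrays and 0.212 with 5). WT replicate 3 was the lowest of the 6 arrays on 8 of the 12 member probe sets and the highest on 3. Differences are therefore given with all 6 arrays and with the 5 arrays that remain without it.

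Over the 9 measured genes, 8 were higher and 1 lower in the knockout mean with 6 arrays, and 9 were higher with 5 arrays. The share of all tested genes that were higher was 64.3% with 6 arrays and 40.1% with 5. With 6 arrays limma called 0 of the 9 at an adjusted p under 0.05, where 0.122% of all tested genes were called. Unadjusted p was under 0.05 for 3 of them (Eomes, Gzmb and Gzmk), against 3.91% of all genes for the same direction, and each of the 3 also differed by at least 1.5-fold (3.81% of all genes). With 5 arrays limma called 1 of the 9, Eomes, where 1.58% of all genes were called 0.818% higher and 0.757% lower. Unadjusted p was then under 0.05 for 4 of the 9 (Cd8a, Eomes, Gzmb and Gzmk), against 7.69% of all genes that were higher and 15% that were lower. Of these, 3 also differed by at least 1.5-fold (4.31% of all genes). The median difference over the 9 genes was 1.25 with 6 arrays and 0.54 with 5, beside 0.16 and -0.06 over all tested genes.

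**Figure D1:**
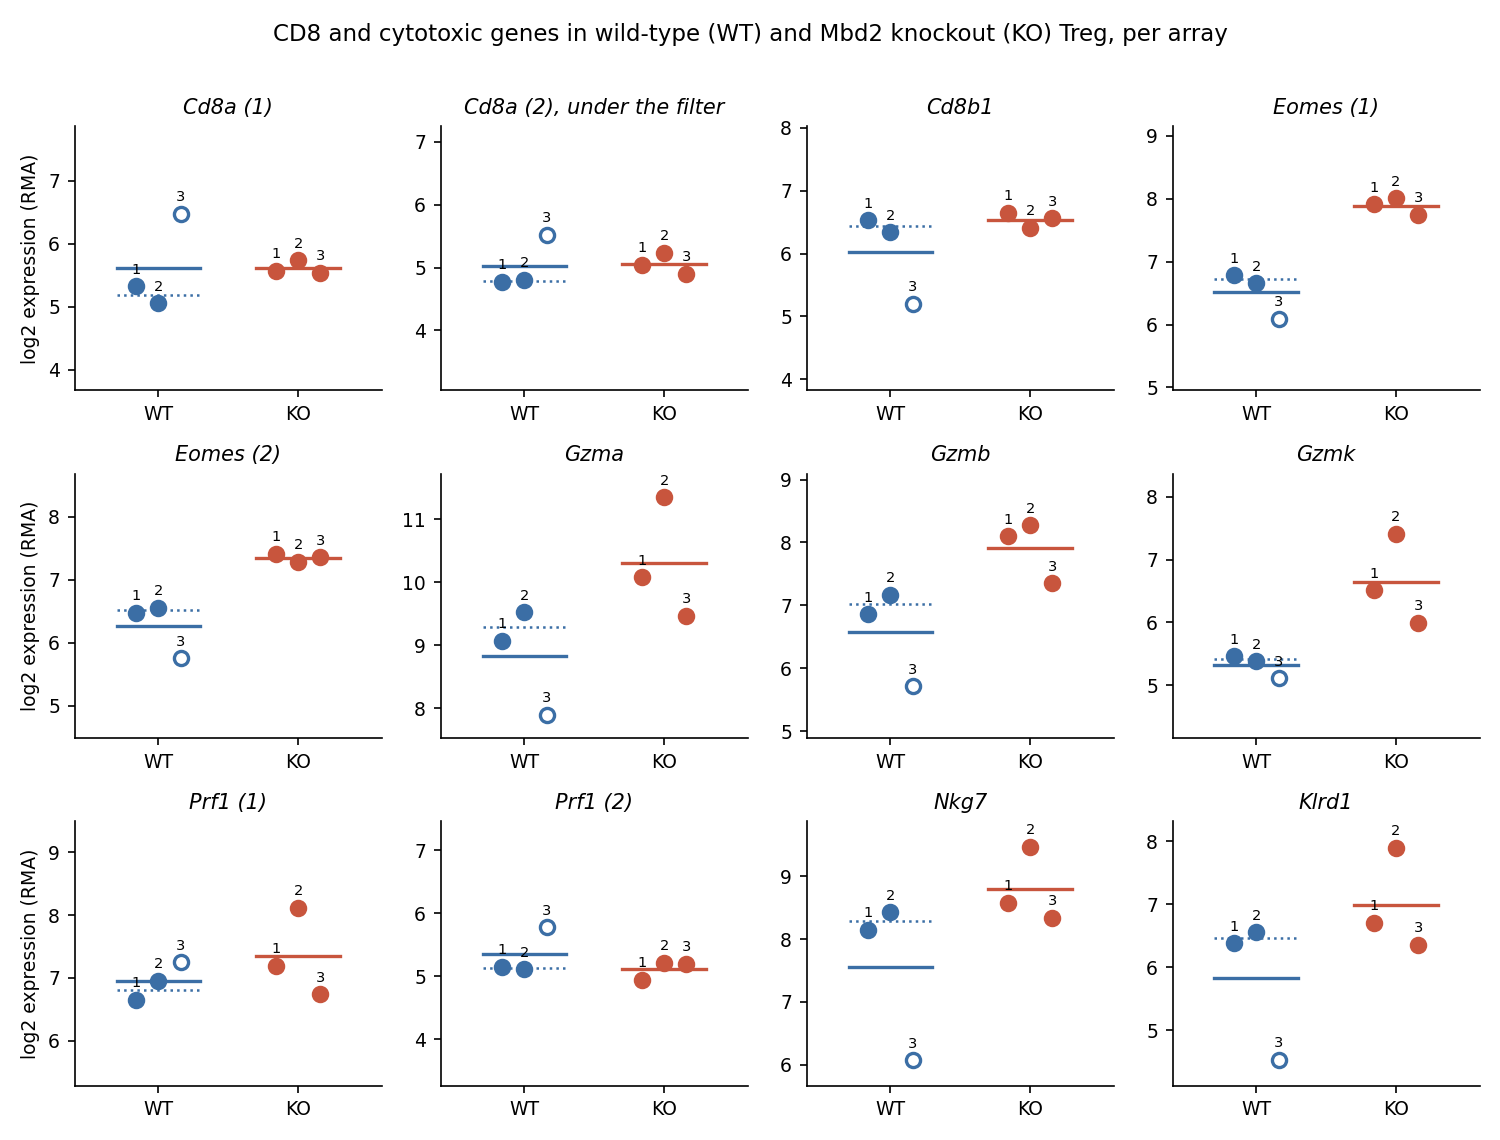
Log2 expression (RMA) of the 12 member probe sets on each array, with WT replicate 3 as an open circle; solid lines are group means and the dotted line is the wild-type mean without that array. The Eomes points of the knockout lie above every wild-type point on both probe sets. Cd8b1 of the knockout (6.41 to 6.65) overlaps WT replicates 1 and 2 (6.53 and 6.34) through knockout replicate 2 alone.

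Eomes had the clearest separation of the groups among the members. Its brighter probe set read 6.78, 6.65 and 6.10 in wild type and 7.91, 8.01 and 7.74 in the knockout. All 3 knockout arrays lay above all 3 wild-type arrays, and the knockout arrays were close together (7.89 ± 0.14, SD, n = 3, against 6.51 ± 0.37, n = 3). With 5 arrays Eomes rose by 1.17 (SE 0.12, 95% confidence interval 0.88 to 1.46, limma adjusted p = 0.0168), a 2.25-fold difference. With 6 arrays the difference was 1.38 (SE 0.26, adjusted p = 0.325).

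The other Eomes probe set gave the same order. It read 6.47, 6.55 and 5.76 in wild type and 7.41, 7.29 and 7.36 in the knockout, again without overlap. Its difference was 0.84 with 5 arrays (SE 0.09, adjusted p = 0.0225, 1.79-fold) and 1.09 with 6 (adjusted p = 0.615). The 5-array call on the brighter probe set was lost when WT replicate 1, WT replicate 2, knockout replicate 1 or knockout replicate 3 was left out as well, with differences of 1.10 to 1.24 and adjusted p of 0.0568 to 0.249. Without knockout replicate 2 the difference was 1.11 (adjusted p = 0.00104).

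Gzma encodes granzyme A, a tryptase-like protease of cytotoxic granules. It read 9.07, 9.52 and 7.89 in wild type and 10.08, 11.36 and 9.47 in the knockout. Knockout replicate 2 was the highest, and knockout replicate 3 lay just under WT replicate 2, so the groups overlapped. The difference was 1.01 with 5 arrays (SE 0.53, interval -0.29 to 2.31, adjusted p = 0.324) and 1.47 with 6 (adjusted p = 0.829). Without WT replicate 3 and knockout replicate 2 it was 0.48 (adjusted p = 0.176).

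Gzmb encodes granzyme B, the caspase-activating protease that activated Treg can make. It read 6.86, 7.17 and 5.71 in wild type and 8.10, 8.27 and 7.35 in the knockout. The groups did not overlap with 6 or with 5 arrays. The difference was 0.89 with 5 arrays (SE 0.28, interval 0.19 to 1.59) and 1.32 with 6 (SE 0.46). Neither passed the threshold in limma, with adjusted p of 0.161 and 0.829.

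Gzmk encodes granzyme K, a tryptase-like relative of granzyme A. It read 5.46, 5.38 and 5.12 in wild type and 6.51, 7.41 and 6.0 in the knockout. Here WT replicate 3 stood near the other wild-type arrays, and every knockout array lay above them. The difference was 1.22 with 5 arrays (SE 0.39, interval 0.26 to 2.17, adjusted p = 0.161) and 1.32 with 6 (adjusted p = 0.802). With 2 arrays a group, without WT replicate 3 and knockout replicate 2, it was 0.83 and past the threshold (adjusted p = 0.0171). With array quality weights it was 1.01 with 6 arrays and 1.01 with 5, past the threshold in limma (adjusted p = 0.0104 and 0.00397). Such weights keep knockout replicate 2 but can count an outlying array for less. The weighted fit therefore cannot decide whether the call depends on that array.

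Prf1, the gene of perforin, was read by a brighter and a dimmer probe set. The brighter probe set read 6.66, 6.96 and 7.25 in wild type and 7.19, 8.12 and 6.74 in the knockout, with overlap and a difference of 0.54 with 5 arrays (interval -0.42 to 1.5, adjusted p = 0.453) and 0.40 with 6 (adjusted p = 0.829). The dimmer probe set read 5.15, 5.11 and 5.78 in wild type and 4.95, 5.21 and 5.20 in the knockout, a difference of -0.01 with 5 arrays (interval -0.30 to 0.28) and -0.23 with 6. The probe sets thus had opposite signs, and neither passed the test with 5 or with 6 arrays. The dimmer one lay next to the filter cutoff of 5.18, with a mean of 5.23 over 6 arrays. WT replicate 3 was its highest array. Without WT replicate 3 its wild-type mean was 5.13, under the cutoff, as was its knockout mean of 5.12. The sign of the dimmer probe set therefore says little about Prf1.

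Nkg7 encodes a membrane protein of cytotoxic granules. It read 8.15, 8.42 and 6.07 in wild type and 8.58, 9.47 and 8.34 in the knockout. WT replicate 3 was far below the other arrays, and the remaining groups overlapped. The difference was 1.25 with 6 arrays (adjusted p = 0.829) and 0.51 without WT replicate 3 (interval -0.31 to 1.33, adjusted p = 0.415). Leaving out knockout replicate 2 as well gave 0.17 (adjusted p = 0.366).

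**Figure D2:**
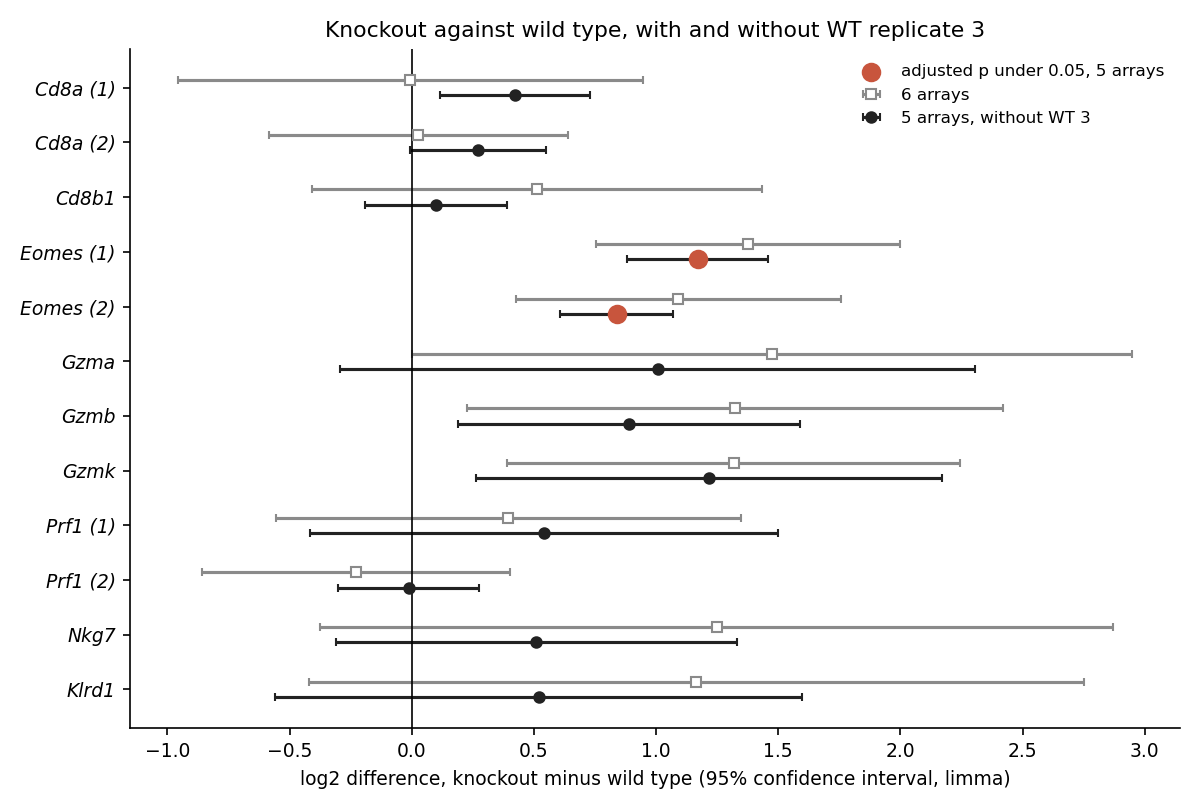
Log2 difference of each member probe set (knockout minus wild type) with its 95% confidence interval from limma, for 6 arrays (open squares) and for 5 arrays without WT replicate 3 (filled circles). Red circles mark the probe sets past an adjusted p of 0.05 with 5 arrays, which were both those of Eomes.

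Neither CD8 coreceptor gene passed the test with 6 or with 5 arrays. Cd8a, the alpha chain, read 5.33, 5.06 and 6.48 in wild type and 5.57, 5.74 and 5.54 in the knockout on its brighter probe set. With 6 arrays the difference was -0.01 (interval -0.96 to 0.95, adjusted p = 0.996), and WT replicate 3 was the highest of the 6 arrays. With 5 arrays the knockout lay above wild type without overlap, by 0.42 (SE 0.12, interval 0.12 to 0.73), which did not pass the threshold (limma adjusted p = 0.143). These are dim values: the wild-type mean without WT replicate 3 was 5.19, next to the filter cutoff of 5.18, and WT replicate 2 lay under it. The dimmer probe set read 4.77, 4.80 and 5.52 in wild type and 5.05, 5.23 and 4.90 in the knockout, a difference of 0.03 with 6 arrays and 0.27 with 5. It lay under the filter (mean log2 of 5.18 over the arrays).

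Cd8b1, the beta chain that conventional CD8 T cells pair with the alpha chain, read 6.53, 6.34 and 5.20 in wild type and 6.65, 6.41 and 6.56 in the knockout. Apart from WT replicate 3, all 5 arrays lay within a narrow band and the groups overlapped. The 5-array difference was 0.10 (interval -0.19 to 0.39, adjusted p = 0.645), and with 6 arrays it was 0.51 (adjusted p = 0.829).

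Klrd1 encodes CD94, the receptor chain that pairs with NKG2 proteins on NK cells and some CD8 T cells. It read 6.38, 6.56 and 4.53 in wild type and 6.71, 7.90 and 6.35 in the knockout. Knockout replicate 2 stood above the rest, WT replicate 3 below, and the other 4 arrays lay between 6.35 and 6.71. The difference was 1.16 with 6 arrays (adjusted p = 0.829), 0.52 with 5 (interval -0.56 to 1.6, adjusted p = 0.521) and 0.06 without knockout replicate 2 as well (adjusted p = 0.772).

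In bulk samples, fewer cells of a type and less RNA per cell cannot be told apart. Groups that did not overlap, with the knockout higher, were seen for 3 of the 9 genes with 6 arrays (Eomes, Gzmb and Gzmk), against 10.8% of all tested genes, while 0 lay apart and lower (5.43% of all genes). With 5 arrays they were seen for 4 of the 9 (Cd8a in addition), against 16.8%. Of the granule genes, 2 of 5 lay apart (Gzmb and Gzmk) and 3 did not (Gzma, Prf1 and Nkg7). Of the coreceptor genes, 1 of 2 lay apart, with 5 arrays only. Klrd1, the single NK receptor with a value, overlapped in both.

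To set the other members against Cd8b1 within arrays, the log2 difference of each gene from Cd8b1 was taken on every array. With 6 arrays the knockout gap exceeded the wild-type gap by 0.86 for Eomes, 0.96 for Gzma, 0.81 for Gzmb, 0.80 for Gzmk, 0.74 for Nkg7 and 0.65 for Klrd1. It was below it for Prf1 (-0.12) and Cd8a (-0.52). With 5 arrays the gap was larger in the knockout for all 8 genes, by 1.07 for Eomes, 0.90 for Gzma, 0.79 for Gzmb, 1.11 for Gzmk, 0.44 for Prf1, 0.41 for Nkg7, 0.42 for Klrd1 and 0.32 for Cd8a. Each value is the difference of that gene minus the difference of Cd8b1, which was the smallest of the measured genes with 5 arrays (0.10). The shared direction of these 8 values thus follows from taking Cd8b1 as the reference. An exact two-sided permutation test over the arrays cannot go below p = 0.1 with 3 against 3 or with 2 against 3 arrays, so it cannot decide whether any of these gaps differ. Eomes gave that smallest value in both sets, and the other 7 genes gave p of 0.2 to 1. Adjusted over the 8 comparisons p was 0.48 to 1 with 6 arrays and 0.533 to 0.9 with 5.

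**Figure D3:**
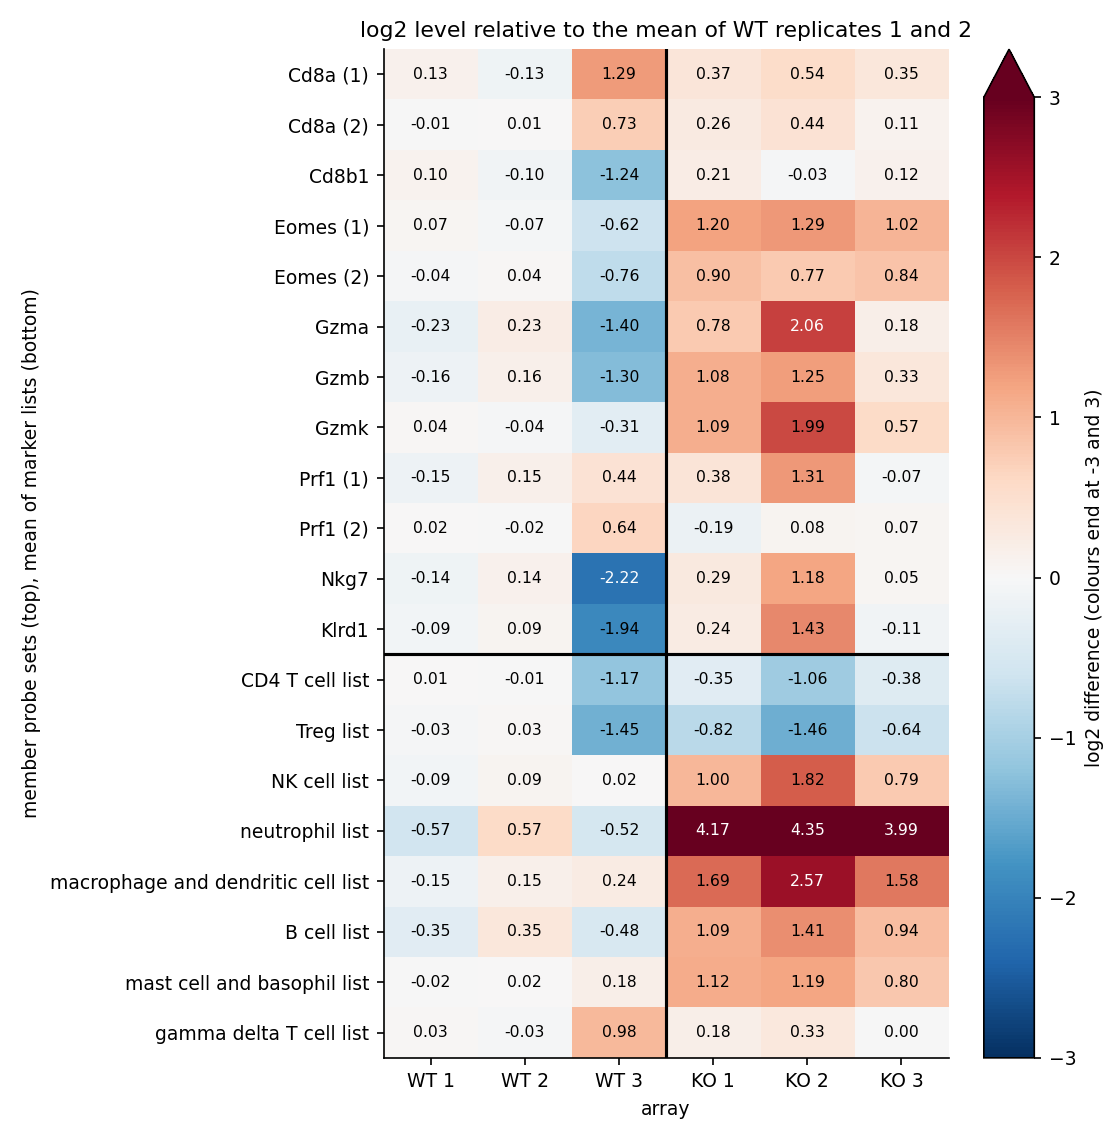
Log2 level of each member probe set (top) and mean log2 level of each marker list (bottom) on every array, relative to the mean of WT replicates 1 and 2; colours end at -3 and 3. Eomes is raised by 0.77 to 1.29 on all 3 knockout arrays, Gzma, Nkg7 and Klrd1 are raised most on knockout replicate 2, and the neutrophil list is raised by 3.99 to 4.35 on the knockout arrays.

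Markers of other blood cells moved with the genotype, and their part in the member differences was not tested. The mean log2 level of 8 neutrophil markers ranged from 5.76 to 6.89 in wild type and from 10.32 to 10.68 in the knockout. Markers of macrophages and dendritic cells (8 of 9 with a probe set) ranged from 5.69 to 6.08 and from 7.42 to 8.41. B cell markers (6 of 7) ranged from 5.91 to 6.74 and from 7.33 to 7.80. Mast cell and basophil markers (6 of 6) ranged from 4.97 to 5.17 and from 5.79 to 6.17. CD4 T cell markers (8 of 9) read 10.35 and 10.37 in WT replicates 1 and 2, 9.19 in WT replicate 3 and 9.30 to 10.01 in the knockout. Treg markers (8 of 8) read 8.67 and 8.74 in WT replicates 1 and 2, 7.25 in WT replicate 3 and 7.25 to 8.06 in the knockout. With 5 arrays all 8 tested CD4 T cell markers and all 7 tested Treg markers lay apart and lower in the knockout (32.8% of all tested genes), and limma called 2, the Treg markers Nrp1 and Itgae (adjusted p = 0.0349 and 0.0321). With 6 arrays none of these markers lay apart, and limma called 0 of them, with 0 at an unadjusted p under 0.05.

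For NK cells 5 of 10 listed markers had a probe set, with mean levels of 5.55 to 5.73 in wild type and 6.43 to 7.47 in the knockout. All 4 tested ones were higher in the knockout mean with 6 and with 5 arrays. With 5 arrays limma called 2 of them (0.818% of all tested genes were called higher). These were Tyrobp and Fcer1g, signalling adaptors that myeloid cells express too (5-array differences 2.80 and 2.29, limma adjusted p = 0.0446 and 0.0323, and 0.14 for each with 6 arrays). Ncr1, the NK receptor NKp46, read 5.52, 5.91 and 5.77 in wild type and 5.96, 7.41 and 5.57 in the knockout, high on knockout replicate 2 alone. Klrk1, the receptor NKG2D, read 5.05, 5.08 and 5.15 in wild type and 4.98, 5.97 and 4.98 in the knockout. Only knockout replicate 2 lay above the filter cutoff of 5.18. Klra8 lay under the filter in the mean. Knockout replicate 2 was also the highest knockout array on 10 of the 12 member probe sets. Without it and WT replicate 3, Eomes differed by 1.11 and Gzmb by 0.71 (adjusted p = 0.0833), while Klrd1 differed by 0.06. A gamma delta T cell list had 1 probe set of 5 genes, Sox13, and says little about those cells.

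Around the members, 5 lists of related genes were followed, with 77 genes of which 67 had a probe set and 50 were tested. In limma 0 of the 50 were called with 6 or with 5 arrays. Unadjusted p was under 0.05 for 7 higher and 0 lower genes with 6 arrays, against 3.91% and 0.574% of all tested genes. With 5 arrays it was so for 10 higher and 6 lower, against 7.69% and 15%. With 5 arrays the groups lay apart for 12 genes higher in the knockout and 11 lower, against 16.8% and 32.8% of all tested genes. The median difference over the 50 genes was 0.32 with 6 arrays and 0.03 with 5.

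Of the other granzyme genes only Gzmm, granzyme M, passed the filter among 7. It read 5.16, 5.25 and 6.43 in wild type and 5.20, 6.01 and 5.42 in the knockout, with overlap and a difference of 0.34 with 5 arrays (adjusted p = 0.446) and -0.07 with 6. Among genes of granule loading and release and their inhibitors, 14 of 17 were tested, and with 5 arrays 5 lay apart higher (16.8% of all tested genes) and 2 lower (32.8%). Crtam, a surface receptor of activated cytotoxic T cells, read 6.13, 5.93 and 6.13 in wild type and 6.86, 6.65 and 6.88 in the knockout, a 5-array difference of 0.77 (SE 0.12, adjusted p = 0.0518) and a 6-array difference of 0.73 (adjusted p = 0.752), with no overlap in either. Lamp2, a membrane protein of lysosomes, differed by 0.80 with 5 arrays (adjusted p = 0.143) and 1.53 with 6. Fasl, the death ligand Fas ligand, and Ctsw, a cathepsin of cytotoxic cells, differed by -0.55 and -0.74 with 5 arrays (adjusted p = 0.136 and 0.145) and by -0.09 each with 6.

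All 12 genes of the choice between the CD4 and CD8 lineages were tested. With 5 arrays 4 were higher and 8 lower, where 40.1% of all tested genes were higher, with 7 apart and lower (32.8% of all genes) and 0 apart and higher (16.8%). Their median difference was -0.24 with 5 arrays. With 6 arrays it was 0.01, with 6 genes on each side and 0 apart. Zbtb7b, the factor ThPOK that holds the CD4 fate and represses Cd8 genes, read 7.90, 7.87 and 6.79 in wild type and 7.66, 7.39 and 7.46 in the knockout (5-array difference -0.38, adjusted p = 0.146; 6-array difference -0.02). Cd4 itself differed by -0.45, Gata3, a factor of the CD4 fate, by -0.73 and Tox, a factor of thymic selection, by -0.83 with 5 arrays (adjusted p = 0.149, 0.149 and 0.231). With 6 arrays these differences were 0.03 for Cd4, which turned direction, and -0.51 for both Gata3 and Tox. Runx3, the factor that silences Cd4 in CD8 cells, was looked at for its role after values were seen: it read 5.87, 5.79 and 6.09 in wild type and 5.96, 6.16 and 5.86 in the knockout (5-array difference 0.16, adjusted p = 0.461; 6-array difference 0.07).

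Among regulators of effector differentiation 11 of 12 were tested, and with 5 arrays 2 lay apart higher and 2 lower, beside 16.8% and 32.8% of all tested genes. Zeb2, a transcriptional repressor made in terminal effector cells, read 4.83, 4.85 and 4.85 in wild type and 5.61, 6.09 and 5.24 in the knockout. The groups lay apart on all 6 arrays, with a difference of 0.81 with 5 arrays (limma adjusted p = 0.147) and 0.80 with 6. Its wild-type values all lay under the filter cutoff of 5.18, so Zeb2 was tested only through its knockout values. Irf4, a factor induced by T cell receptor signals, differed by 0.59 with 5 arrays (adjusted p = 0.217), Hopx, a homeodomain protein of effector cells, by -0.31 (adjusted p = 0.367) and Id3, an inhibitor of E proteins, by -0.78 (adjusted p = 0.402). With 6 arrays these were 1.56 for Irf4, -0.53 for Hopx and -0.13 for Id3. Tbx21, the gene of T-bet, which is the T-box relative of Eomes, was also looked at after values were seen. It read 7.43, 7.43 and 6.69 in wild type and 6.90, 7.73 and 6.75 in the knockout, with overlap and a difference of -0.31 with 5 arrays (adjusted p = 0.566) and -0.06 with 6 (adjusted p = 0.96).

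**Figure D4:**
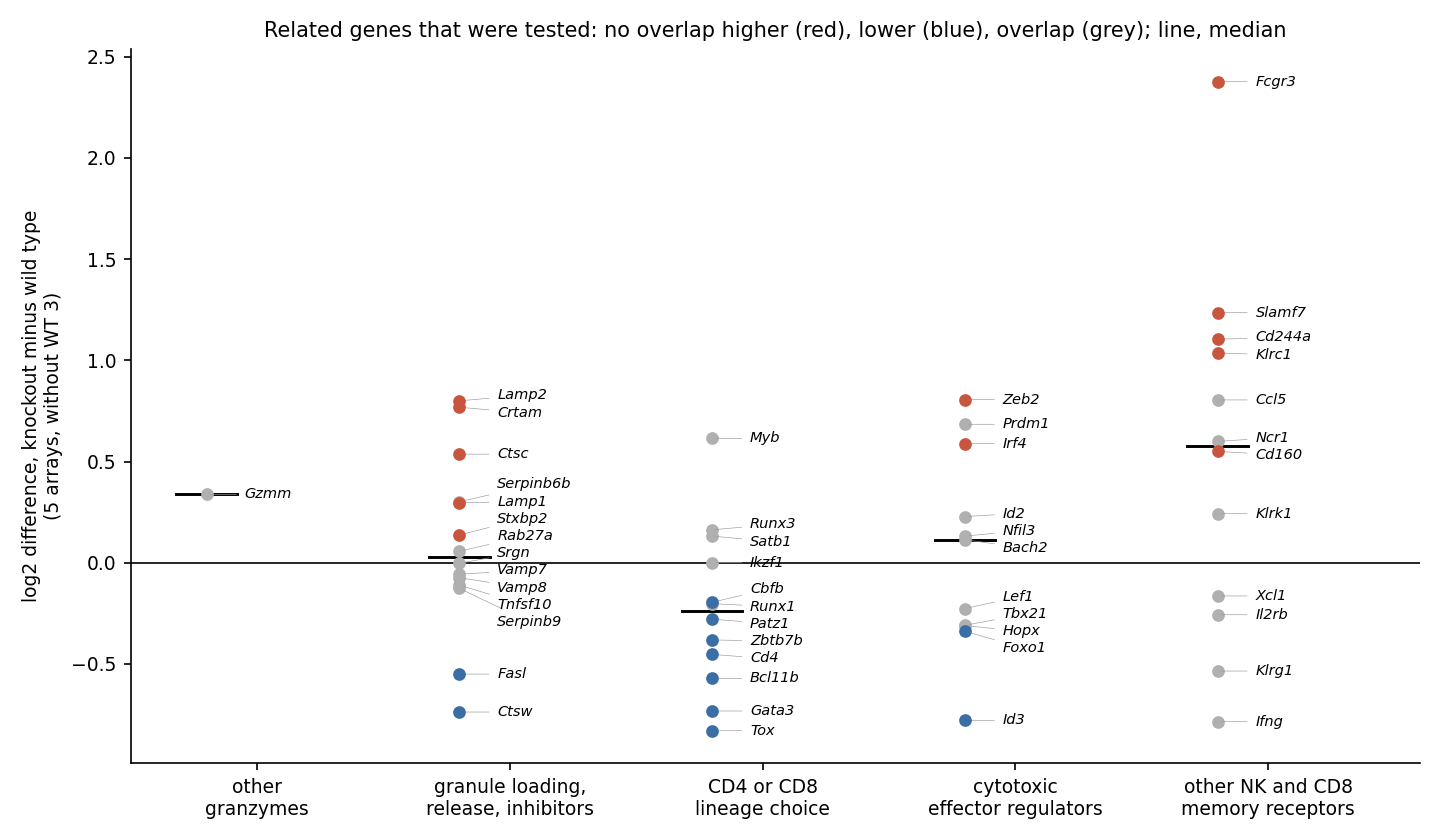
Log2 difference (knockout minus wild type, 5 arrays without WT replicate 3) of the 50 tested genes of the 5 related lists; red and blue points are genes whose groups did not overlap, grey points overlapped, and black bars are list medians. The CD4 and CD8 lineage list has a median of -0.24 (0.01 with 6 arrays) and the NK and CD8 memory receptor list one of 0.57 (0.65 with 6 arrays).

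Other receptors and products of NK and CD8 memory cells had a median difference of 0.57 with 5 arrays and 0.65 with 6 over 12 tested of 29 genes. With 5 arrays 5 lay apart and higher (16.8% of all tested genes) and 0 apart and lower (32.8%). Among the 5, Klrc1 and Cd244a had all wild-type values under the filter cutoff of 5.18 and were tested only through their knockout values. Cd160, a receptor of intraepithelial CD8 T cells and NK cells, read 6.81, 6.75 and 6.25 in wild type and 7.32, 7.30 and 7.38 in the knockout. The 3 knockout values were nearly the same, and the difference was 0.55 with 5 arrays (SE 0.09, adjusted p = 0.0529) and 0.73 with 6 (adjusted p = 0.829). Fcgr3, an IgG receptor that NK cells share with myeloid cells and neutrophils, differed by 2.38 with 5 arrays (adjusted p = 0.0908) and 2.13 with 6 (adjusted p = 0.602). Slamf7 and Cd244a, receptors of the SLAM family found on NK cells and also on myeloid cells, differed by 1.24 and 1.10 with 5 arrays (adjusted p = 0.173 and 0.18) and by 1.35 and 1.15 with 6. Klrc1, which encodes the NKG2A partner of CD94 and was looked at after values were seen, read 4.98, 4.94 and 4.06 in wild type and 5.50, 6.75 and 5.74 in the knockout (5-array difference 1.04, adjusted p = 0.185; 6-array difference 1.34).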

How the data were processed

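The deposited values are log2 expression on a one-colour array, made by the authors with RMA per the submitters' processing notes, and were used unchanged. The sources used here do not name the RMA version or the arrays that entered each RMA run. Of 22690 probe sets, 64 controls were left out; the platform annotation, updated through RefSeq, gives 1 gene for 20380 of the rest, several for 691 and none for 1555.

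A filter at a mean log2 of 5.18 removed the dimmest 40%, leaving 13575 probe sets. Groups were compared with limma 3.58.1 (lmFit and eBayes, R 4.3.3), with Benjamini-Hochberg adjustment over all of them and a threshold of 0.05; the script was tested on simulated data. The brightest tested probe set in the mean stands for its gene. Probe sets under the filter were described from an unfiltered fit. Only 6 arrays limit the precision.

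Members and lists were chosen with earlier results of these data known. All members are named; of each related list, genes past the threshold and otherwise up to 4 with the smallest p over 5 arrays. Klrc1, Runx3 and Tbx21, and the genes under other observations, are exceptions. Promoters are RefSeq sequences (GRCm38.p6), matched by gene identifier for 8 of 10 members. None was at hand for Cd8b1 and Klrd1. Alternatives covered filter, normalization, variance model, array weights, probe set rule, threshold, replicates and replicate block.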

Additional observations from a re-analysis of the deposited data

How the results depend on the processing

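Called members with 6 arrays numbered 0 in the main test, 4 with array weights (Cd8a, Eomes, Gzmb and Gzmk), 2 without both WT replicate 3 and knockout replicate 2 (Eomes and Gzmk), 3 at an unadjusted p under 0.05 with a 1.5-fold difference, and 0 to 1 when each array was left out in turn (1 without WT replicate 3). With 5 arrays 1 was called in the main test, 4 with array weights, 3 at the unadjusted threshold, and 0 to 2 when each remaining array was left out: 0 without WT replicate 1, WT replicate 2, knockout replicate 1 or knockout replicate 3, and 2 without knockout replicate 2. The 6-array difference of Cd8a turned from -0.01 to 0.48 with array weights (adjusted p = 0.00939), 0.048 with arrays centred on their medians and 0.36 without both arrays, and ranged from -0.29 to 0.42 when each array was left out. The 5-array difference of the dimmer Prf1 probe set ranged from -0.059 to 0.074 when each array was left out. Of 298 alternative values of single member probe sets, 266 kept direction and side of the threshold and 8 turned direction. With direction kept, 16 passed the threshold newly and 8 lost it. Those that turned direction include Cd8a with array weights and 6 arrays, which also passed the threshold newly. The cause of these changes was not tested. Correlations of same-numbered deviations from the group means were 0.15, -0.09 and -0.14. The wild-type means include WT replicate 3, so these values cannot decide whether replicate numbers pair the samples. With the replicate block 0 members were called with 6 arrays and 4 with 5 (Eomes, Gzma, Gzmb and Gzmk). In the 5-array block fit knockout replicate 3 has no wild-type partner, so those 4 calls rest on 2 arrays a group.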

Other observations

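Several type 1 effector genes outside the members had a pattern across arrays that the group means hide; they were picked after their values were seen and carry no test of the pattern. Ifng, the cytokine interferon gamma, read 7.47, 7.59 and 5.63 in wild type and 6.18, 8.22 and 5.84 in the knockout (5-array difference -0.78, limma adjusted p = 0.536; 6-array difference -0.15). Klrg1, an inhibitory receptor of differentiated effector cells, read 7.93, 7.91 and 6.24 in wild type and 7.05, 8.31 and 6.80 in the knockout (5-array difference -0.53, adjusted p = 0.508; 6-array difference 0.03). Xcl1, the chemokine lymphotactin, read 6.84, 6.89 and 5.03 in wild type and 6.45, 7.55 and 6.10 in the knockout (5-array difference -0.16, adjusted p = 0.839; 6-array difference 0.45). In each, knockout replicate 2 lay above WT replicates 1 and 2 while knockout replicates 1 and 3 lay below them. Tbx21 had the same order of arrays. Eomes had another order, with all 3 knockout arrays above wild type. Ccl5, a chemokine of memory CD8 T cells and NK cells, read 9.21, 9.53 and 7.88 in wild type and 9.92, 11.10 and 9.50 in the knockout (5-array difference 0.80, adjusted p = 0.352; 6-array difference 1.30), with knockout replicate 2 highest and knockout replicate 3 just under WT replicate 2, as for Gzma.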
